A study of Homo sapiens with 2 samples.

Results

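The TNF receptor and ligand superfamily was followed as 40 genes among the 22595 gene symbols of the count tables. A gene belonged to it when its symbol began with TNFRSF or TNFSF and a digit, or was FAS, FASLG, CD40, LTA, LTB, LTBR or NGFR. They were read in 2 RNA-seq libraries of 786-O, an established cell line from a human renal carcinoma of the clear cell kind, in which the tumour suppressor VHL is inactive. One library came from cells in medium with 0 mM glucose and the other from cells in medium with 25 mM glucose. Both cultures were of the same line and no other treatment or genetic change is named for either, although each carries a short description (LucG at 0 mM, LucF at 25 mM) of unexplained meaning. For the time without glucose, no value was given in the sources used here.

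The library at 0 mM glucose held 31345853 counts and the library at 25 mM glucose 27317598. With 1 library per group none of the differences below had a replicate check, no test was possible and no p-value is given, and higher and lower describe these libraries rather than the conditions. Levels are given as CPM, the count per 1000000 counts of the library after TMM scaling, and levels of different genes are compared only as CPM per kilobase of gene model. Each ratio is that of 0 mM to 25 mM glucose with an exact 95% Clopper-Pearson interval, which covers counting error only. A gene with at least 20 counts over both libraries was called measured, and it was called higher or lower when its interval lay wholly above 2-fold or wholly below 0.5-fold. The renal marker PAX8 had 232 CPM at 0 mM and 244 CPM at 25 mM glucose. Of 7 measured renal markers 3, CDH6, LHX1 and CA12, were lower at 0 mM glucose and 0 were higher, beside 6.2% and 3.76% of all measured genes. CDH6 had 257 counts at 0 mM and 5352 at 25 mM glucose (log2 ratio -4.52). LHX1 had 104 and 544 counts (-2.53) and CA12 had 495 and 1075 (-1.26). VIM gave 5791 of the 6052 CPM of the list at 0 mM and 4336 of 4833 CPM at 25 mM glucose (log2 ratio 0.42, interval 0.41 to 0.43). PAX2 had 37 and 67 counts and was not called. The renal carcinoma markers CA9 and NDUFA4L2 were scarce, with 0 and 19 counts at 0 mM and 4 and 10 at 25 mM glucose. Of 7 leukocyte markers, CD3E, MS4A1, NKG7 and PTPRC had between 1 and 9 counts in each library, none was at 0, and the sum was 346 CPM at 0 mM and 264 CPM at 25 mM glucose, of which LCP1 gave 320 and 253 CPM. CD68 was the one called higher, at 25.6 and 10.7 CPM. Endothelial markers summed to 0.683 and 2.33 CPM, and fibroblast markers to 643 and 923 CPM, of which COL6A3 gave 639 and 910 CPM. All 5 measured fibroblast markers had ratios below equality, and LUM was called lower, with 100 counts at 0 mM and 295 at 25 mM glucose (log2 ratio -1.70). The part of other cell types in the results was not tested. Whether a bulk level is set by fewer cells that carry a transcript or by less transcript per cell cannot be told apart here.

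Receptors of this family are membrane proteins with cysteine-rich repeats that bind trimeric ligands, most of them membrane proteins that can be shed. Receptors with a cytoplasmic death domain recruit adaptors such as TRADD and FADD and can start caspase-driven cell death, whereas receptors without one bind TRAF adaptors and feed the NF-kB and MAP kinase pathways. Decoy receptors bind ligand but lack a working death domain. In the kidney, tubular epithelium carries several of the receptors, while many of the ligands are chiefly products of leukocytes.

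Of the 40 genes, 25 were measured, and 3 of these were lower at 0 mM glucose, namely TNFSF10, TNFRSF1A and TNFRSF19, while 0 were higher. Over all 14240 measured genes, 6.2% were lower and 3.76% higher by the same rule. The most counted of the 3 was TNFSF10, which encodes the death ligand TRAIL, at 105 CPM at 0 mM against 275 CPM at 25 mM glucose. Among members with over 1000 counts, the largest ratios above equality were those of TNFRSF12A at 1.89-fold and TNFRSF10D at 1.76-fold, and neither passed the bound. Where the interval had to pass 1.5-fold, 3 members were higher (NGFR, TNFRSF10D and TNFRSF12A), beside 10.2% of all measured genes, and 4 were lower, beside 12.6%, the added one being TNFRSF11B. Where it had to pass 3-fold, 0 were higher, beside 1.4%, and 1 was lower (TNFRSF19), beside 2.15%. With 99% intervals at 2-fold the counts were again 0 higher, beside 3.2%, and 3 lower, beside 5.47%. The intervals of 8 measured members lay wholly above equality and those of 11 wholly below, against 37.4% and 36.5% of all measured genes. The median log2 ratio of the 25 was 0.06, with quartiles at -0.80 and 0.63, and that of all measured genes was 0.01, with quartiles at -0.45 and 0.42. The sign of the members' median depended on which were taken, as it was -0.37 over the 18 members with at least 100 counts and -0.21 over the 18 whose models overlap no other gene. Summed over the 40 genes, receptors came to 804 CPM at 0 mM and 801 CPM at 25 mM glucose, and ligands to 154 CPM and 323 CPM.

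**Figure D1:**
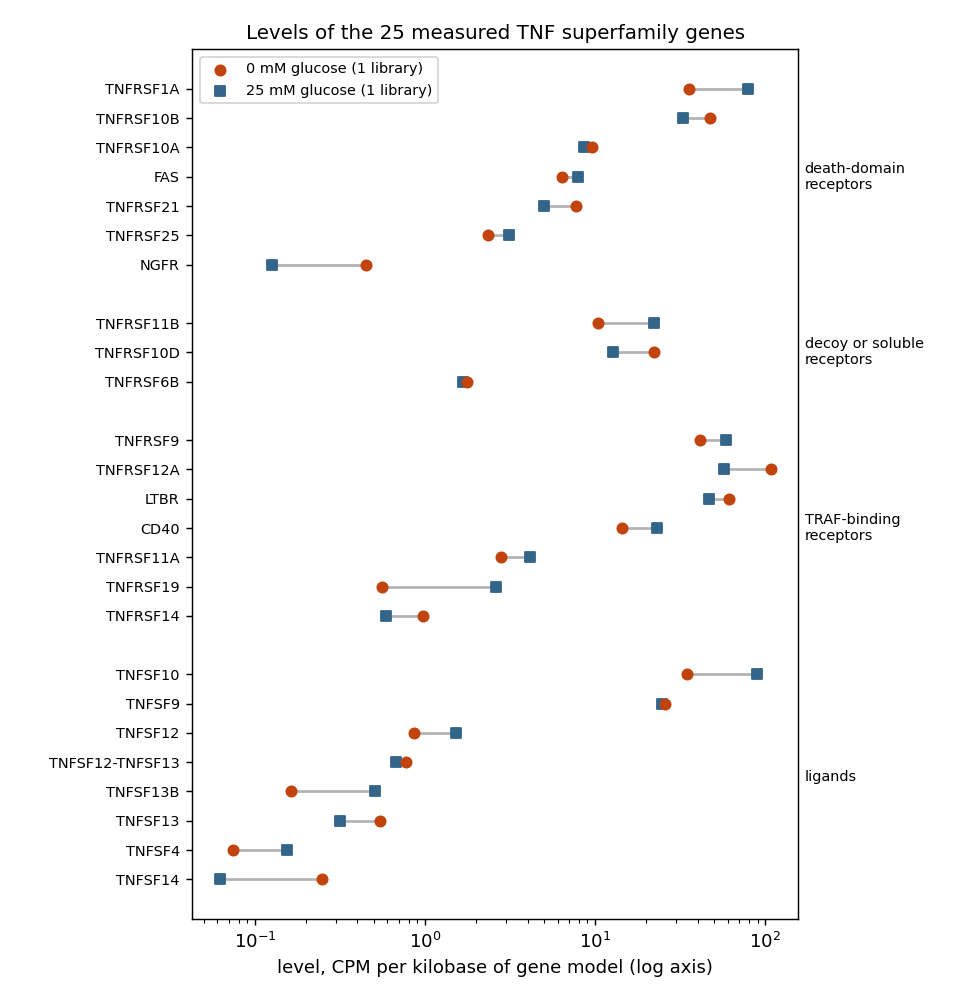
Level of each measured TNF superfamily gene in CPM per kilobase of gene model (log axis), as a circle for the 0 mM glucose library and a square for the 25 mM glucose library, in groups by role. The grey line joins the 2 values of a gene, and the widest gap is that of TNFRSF19, at 0.554 CPM per kilobase at 0 mM and 2.59 at 25 mM.

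The family spanned levels from none to among the highest in these cells. Per kilobase, TNFRSF12A ranked 1 of the 40 at 0 mM glucose with 108 CPM per kilobase, above 94.8% of measured genes. TNFSF10 ranked 6 at 0 mM glucose with 34.5 CPM per kilobase, and ranked 1 at 25 mM glucose with 89.9 CPM per kilobase, above 94.1% of measured genes. TNFRSF1A ranked 5 at 0 mM and 2 at 25 mM glucose, at 35.7 and 79.5 CPM per kilobase. LTBR ranked 2 and 5, TNFRSF10B ranked 3 and 6, and TNFRSF9 ranked 4 and 3 at 0 mM and 25 mM glucose. TNFSF9 kept rank 7 in both libraries, at 25.9 and 24.6 CPM per kilobase.

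Among the 7 receptors with a death domain, 1 was lower at 0 mM glucose and 0 were higher, beside 6.2% and 3.76% of all measured genes. TNFRSF1A, the main receptor for TNF, had 2433 counts at 0 mM and 4904 counts at 25 mM glucose, or 79.1 and 176 CPM. It was 2.22-fold lower at 0 mM glucose, with an interval of 2.12 to 2.34. All 10 exons of its gene model held more than 10 reads in both libraries. In hg19 its model covers bases 6437924 to 6451283 of chromosome 12, minus strand.

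The other death-domain receptors were not called, and their ratios lay on both sides of equality. TNFRSF10B, the TRAIL receptor DR5, had 6063 counts at 0 mM and 3789 at 25 mM glucose (197 and 136 CPM), a ratio of 1.45 with an interval of 1.39 to 1.51. TNFRSF10A, the TRAIL receptor DR4, had 513 and 414 counts (16.7 and 14.9 CPM), and its interval of 0.984 to 1.28 spanned equality. TNFRSF21, known as DR6, had 859 counts at 0 mM and 503 at 25 mM glucose (27.9 and 18.1 CPM), a ratio of 1.55 with an interval of 1.38 to 1.73. The ratios of these 3 receptors were above 1, while that of TNFRSF1A was below 0.5. FAS, the receptor for FAS ligand, had 525 counts at 0 mM and 593 at 25 mM glucose (log2 ratio -0.32, interval -0.49 to -0.15). TNFRSF25, known as DR3, had 137 and 166 counts (log2 ratio -0.42, interval -0.76 to -0.08). NGFR, the low-affinity neurotrophin receptor, was scarce, with 47 counts at 0 mM and 12 at 25 mM glucose. Its log2 ratio of 1.83 had a wide interval, from 0.89 to 2.88, whose lower end fell just short of 2-fold. In its gene model 1 of 6 exons held more than 10 reads in each library.

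Gene models of other genes overlapped 3 of these receptors, and strand handling was not given in the sources used here, so that reads in the shared stretches cannot be assigned. FAS shared 859 bases of its span with ACTA2 on the other strand (276 counts at 0 mM and 236 at 25 mM glucose) and 1551 bases with FAS-AS1, also on the other strand, which had 2 counts in each library. TNFRSF25 shared 103 bases with PLEKHG5 on the same strand, and TNFRSF10B shared 62 bases with RHOBTB2 on the other.

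The decoy and soluble receptors lay on both sides of equality, and none of the 3 measured was called. TNFRSF10D, a membrane decoy for TRAIL with a truncated death domain, had 2413 counts at 0 mM and 1245 at 25 mM glucose (78.5 and 44.7 CPM). Its ratio of 1.76 had an interval of 1.64 to 1.88, wholly above equality and below 2-fold. TNFRSF11B, or osteoprotegerin, a secreted receptor that binds both RANK ligand and TRAIL, had 746 counts at 0 mM and 1438 at 25 mM glucose (24.3 and 51.6 CPM). It stood 2.13-fold lower at 0 mM glucose with an interval of 1.95 to 2.33, which spans 2-fold, so that it was not called. With scaling by total counts its upper log2 bound was -1.02 and it was called lower. TNFRSF6B, the soluble decoy DcR3, had 83 and 72 counts, but 0 of its 8 exons held more than 10 reads in either library. Its model shares 1313 bases with RTEL1 on the same strand, a gene with 769 counts at 0 mM and 698 at 25 mM glucose, and 40 bases with ARFRP1 on the other strand (643 and 572 counts), so its value is uncertain. TNFRSF10C, the decoy held in the membrane by a lipid anchor, had 3 counts and 1 count.

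**Figure D2:**
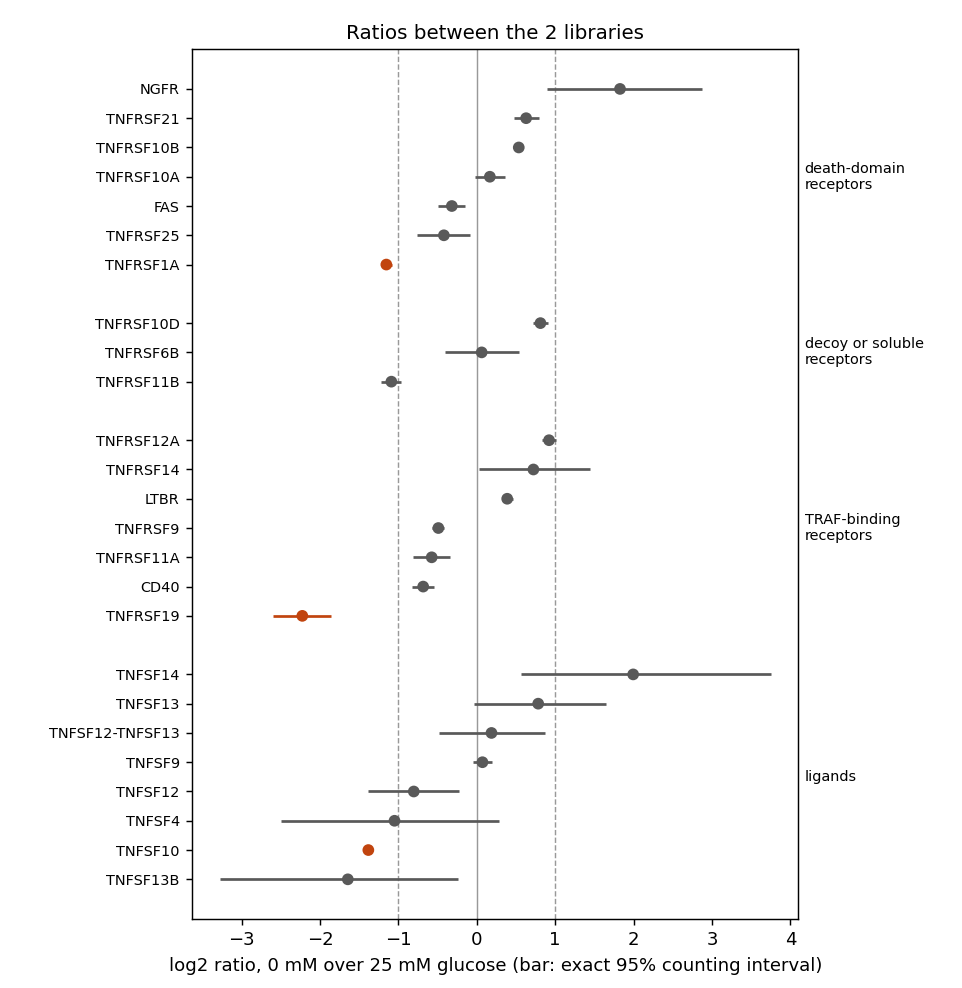
Log2 ratio of 0 mM to 25 mM glucose for each measured TNF superfamily gene, in groups by role, with the exact 95% counting interval as a bar and dashed lines at 2-fold in either direction. The 3 genes in orange, TNFRSF1A, TNFRSF19 and TNFSF10, have intervals wholly below the left dashed line, and no interval lies wholly above the right one.

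Of the 14 receptors that bind TRAF adaptors and lack a death domain, 7 were measured. Among them 1 was lower and 0 higher, beside 6.2% and 3.76% of all measured genes. TNFRSF19, also known as TROY, a receptor of developing epithelium and neural tissue, had 76 counts at 0 mM and 322 at 25 mM glucose (2.47 and 11.6 CPM). It was 4.68-fold lower at 0 mM glucose, with an interval of 3.63 to 6.09. Of its 12 exons, 1 held more than 10 reads at 0 mM and 5 at 25 mM glucose. With 1 CPM added to both libraries its log2 ratio was -1.86 in place of -2.23. Its gene model spans bases 24144724 to 24250232 of chromosome 13 in hg19, on the plus strand.

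TNFRSF12A, known as Fn14, the receptor for the ligand TWEAK, had 3409 counts at 0 mM and 1630 at 25 mM glucose (111 and 58.5 CPM). Its ratio was 1.89, with an interval of 1.79 to 2.01 that reached just past 2-fold at its upper end. Its gene model of 1028 bases is among the shortest 10% of measured genes, whose median log2 ratio was 0.31, beside -0.21 for the longest 10%. Over all measured genes the Spearman correlation of model length with log2 ratio was -0.22. The models of the members called lower, TNFRSF19, TNFSF10 and TNFRSF1A, have 4461, 3058 and 2216 bases. The part of length was not tested for any gene. LTBR, the lymphotoxin beta receptor, had 3955 counts at 0 mM and 2738 at 25 mM glucose (129 and 98.3 CPM), a ratio of 1.31 with an interval of 1.25 to 1.37. LTBR and TNFRSF1A are neighbours on chromosome 12 with 42074 bases between their models, and they stood on opposite sides of equality. Within each library, and so without any scaling between them, LTBR stood at 1.72 times TNFRSF1A per kilobase at 0 mM and at 0.591 times at 25 mM glucose, a 2.91-fold shift with an exact conditional interval of 2.72 to 3.12.

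TNFRSF9, the costimulatory receptor CD137, was abundant for a receptor known mainly from activated T cells, with 2397 counts at 0 mM and 3050 at 25 mM glucose (78.0 and 110 CPM). All 8 of its exons held more than 10 reads in both libraries. Its log2 ratio of -0.49 had an interval of -0.57 to -0.41. CD40, a receptor of antigen-presenting and epithelial cells, had 714 and 1039 counts (23.2 and 37.3 CPM), at a log2 ratio of -0.68 with an interval of -0.82 to -0.54. TNFRSF11A, the RANK receptor, had 266 and 359 counts (log2 ratio -0.58, interval -0.81 to -0.34). These 3 receptors lay below equality at 0 mM glucose by less than 2-fold. TNFRSF14, the HVEM receptor for LIGHT, had 51 counts at 0 mM and 28 at 25 mM glucose, a ratio of 1.65 with an interval of 1.02 to 2.72.

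The remaining TRAF-binding receptors, mostly of lymphocytes, were under the minimum. TNFRSF4, TNFRSF17 and TNFRSF18 had 0 counts in both libraries, which allows up to 0.0976 CPM at 0 mM and 0.108 CPM at 25 mM glucose (3 counts each). TNFRSF1B, the other receptor for TNF, had 8 counts at 0 mM and 0 at 25 mM glucose, so nearly all TNF receptor transcripts in both libraries were those of TNFRSF1A. TNFRSF13C had 12 counts and 3 counts, TNFRSF13B had 3 counts and 1 count, and TNFRSF8 had 2 counts and 1 count.

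Of the 15 ligand genes, 8 were measured, with 1 lower and 0 higher, beside 6.2% and 3.76% of all measured genes. TNFSF10 had 3241 counts at 0 mM and 7659 at 25 mM glucose and was 2.61-fold lower at 0 mM, with an interval of 2.50 to 2.72. All 7 of its exons held more than 10 reads in both libraries. The gene occupies bases 172223299 to 172241297 of chromosome 3 in hg19, on the minus strand. TNFSF9, the ligand of TNFRSF9, had 1322 and 1139 counts (43.0 and 40.9 CPM), and its interval of 0.971 to 1.14 spanned equality. TNFSF10 and TNFSF9 together held nearly all counts of these 15 genes, so their summed level followed TNFSF10. That sum leaves out ligands whose symbols fall outside the rule, among them CD70 (4265 counts at 0 mM and 3087 at 25 mM glucose) and TNF (71 and 429).

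The other measured ligands had between 5 and 68 counts in each library. TNFSF12, which encodes TWEAK, TNFSF13, which encodes the B-cell factor APRIL, and the read-through model TNFSF12-TNFSF13 overlap on 1 strand of chromosome 17. They had 43, 38 and 44 counts at 0 mM and 68, 20 and 35 counts at 25 mM glucose, and their reads cannot be told apart with certainty. TNFSF14, which encodes LIGHT, had 22 counts at 0 mM and 5 at 25 mM glucose (ratio 3.99, interval 1.47 to 13.5). TNFSF13B, the B-cell factor BAFF, had 6 and 17 counts (log2 ratio -1.64, interval -3.28 to -0.23), and TNFSF4, or OX40 ligand, had 8 and 15 counts. The intervals of these last 3 genes were too wide to place them past 2-fold, and each passed the minimum on the counts of both libraries summed.

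Among the ligands under the minimum, LTB, the lymphotoxin beta subunit, had 1 count at 0 mM and 15 at 25 mM glucose. Its log2 ratio of -4.05 had an interval of -9.45 to -1.35, wholly past the lower bound on 16 counts in all. LTA, its partner subunit, had 5 counts at 0 mM and 3 at 25 mM glucose. TNFSF11, the RANK ligand, and TNFSF15, the ligand of DR3, each had 1 count at 0 mM and 3 at 25 mM glucose. TNFSF8 had 1 count in each library, FASLG had 0 counts and 1 count, and TNFSF18 had 0 counts in both. RANK, CD40 and FAS transcripts were thus present while those of TNFSF11, CD40LG and FASLG were at or near 0, CD40LG with 4 counts at 0 mM and 2 at 25 mM glucose.

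For TRAIL, the ligand and 3 of the 4 membrane receptor genes were measured. Summed over TNFRSF10A, TNFRSF10B, TNFRSF10C and TNFRSF10D, the membrane TRAIL receptors came to 79.5 CPM per kilobase at 0 mM and 54.1 at 25 mM glucose, while TNFSF10 itself stood at 34.5 and 89.9 CPM per kilobase. The death receptor TNFRSF10B made up 59.8% of the receptor sum at 0 mM and 60.7% at 25 mM glucose, and the decoy TNFRSF10D 28.0% and 23.5%. Within each library TNFSF10 stood at 0.724 times TNFRSF10B per kilobase at 0 mM and at 2.74 times at 25 mM glucose. This ratio was 3.78-fold lower at 0 mM glucose, with an exact conditional interval of 3.57 to 4.01 that does not depend on scaling between the libraries. The soluble decoy TNFRSF11B stood at 0.218 times TNFRSF10B at 0 mM and 0.672 times at 25 mM glucose (3.08-fold lower, interval 2.80 to 3.40). The membrane decoy TNFRSF10D stood at 0.468 times TNFRSF10B at 0 mM and 0.386 times at 25 mM glucose, a shift of 1.21-fold with an interval of 1.12 to 1.31. The 4 TRAIL receptor genes and TNFRSF11B all lie on chromosome 8, the first 4 close together.

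**Figure D3:**
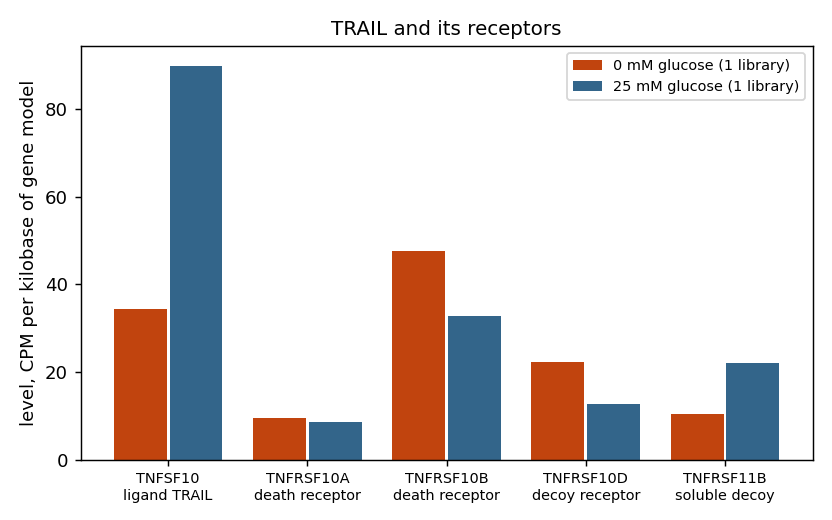
Level of TNFSF10 (TRAIL) and of the genes of its receptors in CPM per kilobase of gene model, with the 0 mM glucose library in orange on the left of each pair and the 25 mM glucose library in blue on the right, 1 library each. TNFSF10 stands at 34.5 against 89.9, TNFRSF10B at 47.6 against 32.8, TNFRSF10D at 22.3 against 12.7 and TNFRSF11B at 10.4 against 22.1, so that the ligand is below TNFRSF10B at 0 mM and above it at 25 mM glucose.

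Ratios within each library were also taken for the pairs of TNF and of CD137. TNF, whose symbol falls outside the rule, had 71 counts at 0 mM and 429 at 25 mM glucose (2.31 and 15.4 CPM) and was 6.67-fold lower at 0 mM. Per kilobase TNF stood at 0.0388 times its receptor TNFRSF1A at 0 mM and at 0.116 times at 25 mM glucose, 3.0-fold lower at 0 mM with an interval of 2.32 to 3.93. Both genes of the pair were lower at 0 mM glucose, TNF by more than its receptor. TNFSF9 stood at 0.623 times TNFRSF9 at 0 mM and at 0.422 times at 25 mM glucose, a shift of 1.48-fold with an interval of 1.34 to 1.63.

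The stretches of 250 bases upstream of the RefSeq transcription starts are shown for the 3 genes called lower, to set their promoters side by side, and for TNFRSF9, as a member that held kappa-B matches and was not called. They are RefSeq sequences of build GRCh38.p14, and no other coordinates here are from that build. Each is written from 5′ to 3′ on the strand of its gene, with motif matches in capitals. TNFRSF19 has a pair of RefSeq starts, and both stretches are given.
TNFSF10, chr3:172523431-172523680, minus strand: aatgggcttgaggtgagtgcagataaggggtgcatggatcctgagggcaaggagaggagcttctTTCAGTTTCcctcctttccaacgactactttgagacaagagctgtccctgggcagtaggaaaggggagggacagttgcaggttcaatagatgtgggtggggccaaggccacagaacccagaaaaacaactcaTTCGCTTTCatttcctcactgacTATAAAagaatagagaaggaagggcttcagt
TNFRSF1A, chr12:6342077-6342326, minus strand: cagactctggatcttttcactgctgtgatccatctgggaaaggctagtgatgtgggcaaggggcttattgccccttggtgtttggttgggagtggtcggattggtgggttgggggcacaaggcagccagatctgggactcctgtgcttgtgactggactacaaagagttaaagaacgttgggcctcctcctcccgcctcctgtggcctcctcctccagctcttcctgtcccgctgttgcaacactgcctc
TNFRSF19, first start, chr13:23570162-23570411, plus strand: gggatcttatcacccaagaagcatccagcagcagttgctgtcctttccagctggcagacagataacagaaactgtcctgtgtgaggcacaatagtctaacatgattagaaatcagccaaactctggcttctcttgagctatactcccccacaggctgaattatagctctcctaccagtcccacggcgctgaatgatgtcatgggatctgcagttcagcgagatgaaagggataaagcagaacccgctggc
TNFRSF19, second start, chr13:23579110-23579359, plus strand: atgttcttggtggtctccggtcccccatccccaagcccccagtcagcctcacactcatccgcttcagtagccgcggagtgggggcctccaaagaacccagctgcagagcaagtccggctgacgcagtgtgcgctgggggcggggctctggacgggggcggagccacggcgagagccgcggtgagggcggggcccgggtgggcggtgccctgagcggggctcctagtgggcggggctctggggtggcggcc
TNFRSF9, chr1:7940840-7941089, minus strand: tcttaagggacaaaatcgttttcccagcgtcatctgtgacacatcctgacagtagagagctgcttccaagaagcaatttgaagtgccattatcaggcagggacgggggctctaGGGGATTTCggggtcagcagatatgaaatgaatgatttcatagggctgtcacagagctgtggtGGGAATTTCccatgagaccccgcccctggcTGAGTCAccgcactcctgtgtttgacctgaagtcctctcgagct

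The motifs searched on both strands were a kappa-B core (GGGNNTTTC), the core of an interferon response element (GAAANNGAA), an AP-1 site (TGANTCA), the core of an ATF4-CHOP composite element (TGATGNAA) and a TATA box (TATAAA), and no matches overlapped in the stretches shown. In TNFSF10 the capitals mark 2 interferon cores read on the opposite strand, TTCAGTTTC from 186 to 178 bases upstream and TTCGCTTTC from 54 to 46, and a TATA box from 31 to 26 bases upstream. In TNFRSF9 they mark 2 kappa-B cores, GGGGATTTC from 137 to 129 bases upstream and GGGAATTTC from 74 to 66, and an AP-1 site, TGAGTCA, from 44 to 38. The stretches of TNFRSF1A and TNFRSF19 held none of these letters, and the 3 genes called lower shared no match. Among 35116 such stretches in the RefSeq table, 4.16% held the kappa-B core, 6.88% the interferon core, 6.57% the AP-1 site, 3.14% the ATF4-CHOP core and 10.7% the TATA box. For 26 of the 40 family members at least 1 stretch was matched by symbol, chromosome 8 aside. Of these members 4 held the kappa-B core (FAS, FASLG, LTB and TNFRSF9), 5 the interferon core, 4 the AP-1 site, 0 the ATF4-CHOP core and 5 the TATA box. These are counts of genes, some with several stretches, and are not comparable with the shares of stretches. Of the 35 stretches of these members, 5 held the kappa-B core, 5 the interferon core, 5 the AP-1 site, 0 the ATF4-CHOP core and 5 the TATA box. Chromosome 8 was left out for the members alone. The member counts, the 0 for the ATF4-CHOP core included, therefore do not cover TNFRSF10A, TNFRSF10B, TNFRSF10C, TNFRSF10D and TNFRSF11B, which lie on it. A match is a run of letters and not a shown binding site.

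Of 8 further genes of the superfamily that carry other symbols, 4 were measured, with a median log2 ratio of -0.09. At 0 mM glucose 1 was lower and 1 higher, beside 6.2% and 3.76% of all measured genes. The lower one was TNF. The higher one was EDA2R, a receptor for ectodysplasin A2, with 306 counts at 0 mM and 65 at 25 mM glucose (9.95 and 2.33 CPM), 4.27-fold higher. CD70, a ligand often found on renal carcinoma cells, had 4265 counts at 0 mM and 3087 at 25 mM glucose (log2 ratio 0.32, interval 0.26 to 0.39). Its receptor CD27 had 3 counts and 1 count. RELT, an orphan receptor, had 423 and 543 counts (log2 ratio -0.50).

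Of 20 adaptors and enzymes that act next to the receptors, 19 were measured, and their median log2 ratio was -0.40. At 0 mM glucose 4 were lower and 0 higher, beside 6.2% and 3.76% of all measured genes. The lower ones were BIRC3, a ubiquitin ligase that restrains caspase activation at TNF receptors, at 40.6 CPM at 0 mM and 351 CPM at 25 mM glucose (log2 ratio -3.11), TRAF1 (-1.37) and TRAF2 (-1.23), adaptors of the TNF receptors, and MLKL, the executor of necroptosis (-1.34). Its activating kinase gene RIPK3 had 1 count in each library. The death-domain adaptors had values on both sides, TRADD with 230 counts at 0 mM and 110 at 25 mM glucose (log2 ratio 0.92) and FADD with 1025 and 1138 (-0.29). CASP8, the initiator caspase, had 1560 counts at 0 mM and 1272 at 25 mM glucose (log2 ratio 0.15), and CFLAR, its inhibitor, had 1095 and 1589 (-0.68).

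Of 20 kinases, NF-kB factors and ubiquitin editors downstream, all were measured, with a median log2 ratio of -0.30. Among them 1 was lower and 0 were higher, beside 6.2% and 3.76% of all measured genes. The lower one was TNIP1, a partner of the ubiquitin editor A20, at 190 CPM at 0 mM and 411 CPM at 25 mM glucose (log2 ratio -1.11). TNFAIP3, which encodes A20, stood at -1.01 with an interval of -1.12 to -0.90. IKBKG, the regulatory subunit of the IKK complex, stood at 1.21 with an interval of 0.99 to 1.43, and a near-identical pseudogene copy makes its count uncertain. RBCK1, a subunit of the linear ubiquitin ligase, had a log2 ratio of 0.80.

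Of 14 genes taken as TNF-inducible, 13 were measured, with a median log2 ratio of -0.45. At 0 mM glucose 5 were lower and 0 higher, beside 6.2% and 3.76% of all measured genes. Lower were the chemokine gene CCL2 (log2 ratio -4.40), TNFAIP2 (-2.64) and the adhesion molecule gene VCAM1 (-2.29). The other lower ones were NFKBIA, the inhibitor of NF-kB (-1.62), and SOD2, the mitochondrial superoxide dismutase (-1.30). VCAM1 had 6045 counts at 0 mM and 26710 at 25 mM glucose. Of the 8 measured genes not called, 4 had intervals wholly below equality, namely NFKBIE (log2 ratio -0.53), TNFAIP8 (-0.45), CXCL1 (-0.44) and ICAM1 (-0.14), and that of NFKBIB spanned it. The other 3 lay above equality, IL6 with 2379 and 1321 counts (log2 ratio 0.71), CXCL2 with 687 and 312 counts (1.0) and IL8 with 28958 and 22805 counts (0.20). Of 7 proteases that process the ligands and receptors, none of the 7 measured was called, and their median log2 ratio was 0.31. ADAM17, which sheds TNF and its receptors, had 190 CPM at 0 mM and 104 CPM at 25 mM glucose (log2 ratio 0.87, interval 0.80 to 0.93), and FURIN stood at -0.77, ADAM10 at -0.59 and SPPL2B at 0.47.

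**Figure D4:**
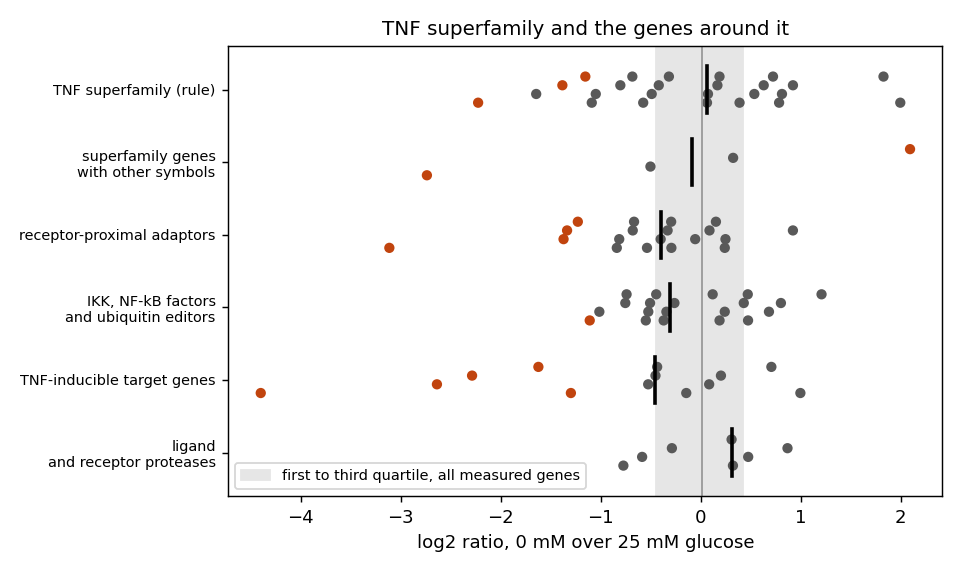
Log2 ratio of 0 mM to 25 mM glucose for each measured gene of the TNF superfamily and of 5 lists of genes around it, with called genes in orange, the median of each list as a black bar, and the median and the quartiles of all measured genes as a grey line and a grey band. The TNF superfamily median of 0.06 lies inside the band and the median of -0.45 of the TNF-inducible genes lies at its lower edge.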

How the data were processed

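RNA from 2 cultures of 786-O cells, 1 per group, was extracted with Trizol and sequenced, per the labels' protocols, and the groups were taken from the sample titles. Reads were counted per gene model on hg19, per the submitters' processing notes and the file headers. Library preparation, aligner, counting program and strand handling were not given in the sources used here. Counts were deposited as whole numbers and had not been normalized, per the file headers. The deposited RPKM values were the counts per kilobase divided by 1 constant per library, per the file headers and the values, and served as a check alone. Exons with more than 10 reads were counted by the authors, per the file headers.

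Of 24364 rows, 528 repeated the place, length and counts of another row and were left out, and the rest were added up by symbol. Starts are printed 1-based. TMM factors (edgeR 4.0.16 in R 4.3.3; 0.981 at 0 mM and 1.02 at 25 mM glucose) came from the genes with at least 20 counts over both libraries. Ratios, intervals and figures were made with Python 3.11.15, scipy 1.17.1 and matplotlib 3.10.9. The interval procedure was tested on simulated Poisson counts alone. These hold no spread between cultures, so this checked the calculation and not how well the intervals suit real libraries. For zero counts the floor was 3 counts per library. The log2 interval reached about 1.42 to either side for a gene with 20 counts and 0.60 for one with 100 counts. Both intervals and floors describe counting error alone and hold no spread between cultures or from any PCR copies.

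The members, lists and motifs were chosen with earlier results of these data known. Named were every member, genes whose models overlap a member, and of each other list the called genes and up to 4 with the largest log2 ratios; further genes of the lists were added after their values were seen. Alternatives covered the scaling (DESeq2 1.42.0 size factors among them), the count minimum, the fold asked for, the interval level, an added CPM, repeated rows and overlapping models. One gene of the leukocyte marker list is not reported here.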

Additional observations from a re-analysis of the deposited data

How the results depend on the processing

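No paired analysis was possible because either group held 1 library, and none could be left out. Over the 12 alternatives, all planned, the log2 ratios of measured members were recomputed 193 times where the setting bears on them, and all 193 kept their sign. Of these, 190 lay inside the counting interval, and the other 3, all with 1 CPM added, were NGFR (0.82), TNFRSF19 (-1.86) and TNFSF14 (0.54). A count minimum leaves a gene's own ratio unchanged, and a new scaling shifts all ratios by the same amount. Most of this agreement in sign and interval was therefore set in advance. The median of the measured members, 0.06, turned to -0.37 with a minimum of 100 counts and to -0.21 without overlapping models, both from fewer members, and was between 0.01 and 0.12 under the other alternatives that recompute it. TNFRSF19, TNFRSF1A and TNFSF10 stayed lower under every alternative that gave calls (the added CPM gave none) except the 3-fold bound, which left 1 of them, TNFRSF19. The count minimums, the looser 1.5-fold bound and the removal of overlapping models could not change these calls. The 3 genes have 398, 7337 and 10900 counts over both libraries, and their models overlap no other gene. TNFRSF11B joined these 3 with scaling by total counts, and LTB did with a minimum of 1 count, for 4 lower members in each case. The lower genes among all measured genes also rose, from 883 to 972 with total counts and to 906 with a minimum of 1 count. With an interval past 1.5-fold, 3 members were higher (NGFR, TNFRSF10D and TNFRSF12A, against 10.2% of all genes) and 4 lower (12.6%), where the 2-fold bound gave 0 and 3. At 3-fold, 0 were higher (1.4%) and 1 lower (2.15%). With 99% intervals the counts of 0 and 3 stood beside 3.2% and 5.47%.

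For the other lists, the 1.5-fold bound gave 1 higher and 5 lower adaptors, and 2 higher and 4 lower genes among the kinases and NF-kB factors. It gave 2 higher and 5 lower TNF-inducible genes, and 1 higher and 1 lower protease. Superfamily genes with other symbols had 1 higher and 1 lower at 1.5-fold and again at 3-fold. The 3-fold bound left 1 lower adaptor, 0 lower kinases and NF-kB factors and 3 lower TNF-inducible genes. Of all measured genes, 10.2% were higher and 12.6% lower at 1.5-fold, and 1.4% and 2.15% at 3-fold. With DESeq2 size factors, upper-quartile scaling or TMM without small RNA genes, 1 gene of the kinases and NF-kB factors, IKBKG, was higher, where the main scaling gave 0. Under these scalings in turn, 584, 584 and 561 of all measured genes were higher. Over all measured genes, 535 were higher and 883 lower at 2-fold, 1451 and 1799 at 1.5-fold, and 200 and 306 at 3-fold, and over the scalings their median log2 ratio ran from -0.04 with total counts to 0.05 with upper-quartile scaling, while with a minimum of 1 count it was -0.05. Members with few counts are limited by depth, and 15 of the 40 had under 20 counts over both libraries. At 20 counts the log2 interval reached 1.42 to either side, so that a call there needed a ratio far past 2-fold.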
